A study of Mus musculus with 6 samples.

Results

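The genes described here are named for proteins of the mitochondrial ribosome. They were taken as the rows of a count table of mouse CD4+ T cells whose symbol begins with Mrpl or Mrps followed by a digit. This rule was met by 75 of the 13177 rows. It goes by symbol alone, so whether each protein, such as that of Mrps36, belongs to the ribosome was not checked. RefSeq lists 78 protein-coding mouse genes with such symbols, and the other 3, Mrpl53, Mrps10 and Mrps27, were not analysed here. Of the 75 genes, 59 had enough counts for a test and 16 did not. The 6 libraries formed 2 groups of 3. One group was collected 8 h after CD4+ T cells, the helper lineage, were treated with synthetic miR-155 as an oligonucleotide. Lymphocytes are known to raise this microRNA when activated. The other group, titled control, was collected at 0 h, and its treatment label names the same oligonucleotide. Time and exposure therefore cannot be told apart, and the descriptions of the 8 h samples say CD5+ where their source labels say CD4+. Strain, age and sex were not given in the labels, and no label ties a replicate to an animal or culture of its own. The p-values therefore cover the scatter among these libraries alone, and that scatter may be technical.

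The mitochondrial ribosome translates the messenger RNAs of mitochondrial DNA, which encode core subunits of the respiratory chain and of ATP synthase. All of its proteins are encoded in the nucleus, made in the cytosol and imported. Its small subunit holds the decoding site, and its large subunit joins the amino acids and releases the chain at the inner membrane. Some of its proteins descend from bacterial ribosomal proteins, and others were added in mitochondria. Activated T cells are known to enlarge their mitochondria, and mitochondrial translation is known to be needed for the respiration and cytokine output of helper T cells.

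Library totals were 8536899, 13675127 and 6243803 counts in 8 h replicates 1 to 3 and 6455076, 4564010 and 12303358 counts in control replicates 1 to 3. Counts of single genes differed widely between libraries of 1 group, and rows that every cell uses were almost empty, with 1 to 11 counts of Gapdh in every library. Cd4, the defining marker of the cells, had 8, 9 and 5 counts at 8 h and 6, 6 and 10 counts in controls. Cd3d, a chain of the T cell receptor complex, had 953, 3584 and 2895 counts at 8 h and 1338, 73937 and 13051 counts in controls. Cd3g, another chain, had 11784, 8429 and 53986 counts at 8 h and 1421, 1152 and 19636 counts in controls. Of 6 tested T cell markers, 2 had higher and 4 had lower values at 8 h, all with overlapping groups. It is uncertain that each row is a usual gene-level count, and that limit applies to each value that follows. In bulk RNA, fewer cells of a type and less RNA per cell cannot be told apart. Values are given as CPM, counts per 1e6 of the TMM-scaled library size, unless counts are named.

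No mitochondrial ribosomal protein gene passed the test between 8 h and control cells. At an adjusted p under 0.05, edgeR (quasi-likelihood) called 0 of the 59, and 0% of all 8308 genes tested. At an unadjusted p under 0.05 it gave 0 of the 59, against 8.53% of all genes tested. DESeq2 called 0 of the 52 to which it gave an adjusted p, and left 7 without one. Over all genes it called 399, or 4.8% of the 8308, of which 6588 had an adjusted p. At an unadjusted p under 0.05 it gave 12 of the 59, or 20.3%, against 16.5% of all genes. The limma-voom fit called 0 of the 59 and 0% of all genes, and gave 1 at an unadjusted p under 0.05, against 4.81% of all genes. The edgeR adjusted p of the 59 genes lay between 0.621 and 0.998. Log2 fold changes, 8 h over control, were above 0 for 35 and below 0 for 24, so 59.3% were higher, against 51.3% of all tested genes. Their median was 0.34, against 0.06 over all tested genes, and was 1.31 without control 2, against 0.26 over all. It was 0.24 over the 38 tested genes of the large subunit and 0.72 over the 21 of the small subunit. By a hand-made sorting on descent, 31 tested genes placed as having a bacterial counterpart had a median of -0.05, with 14 higher and 17 lower. The 26 tested genes placed as lacking one had a median of 0.76, with 20 higher and 6 lower. The sorting was not checked against another source. The place of Mrps28 and Mrps36 among the 26, with log2 fold changes of -0.16 and 2.26, is uncertain. Standard errors ran from 1.12 to 2.21 log2 units, with a median of 1.86, against 1.71 over all tested genes. The absolute log2 fold change exceeded its own SE for 25 of the 59 genes. The share of all tested genes that did so was not counted, so whether 25 is many cannot be read. Absolute log2 fold changes above 2 were found for 19 genes, 14 higher and 5 lower, or 32.2% of those tested, where 31% of all genes exceeded that size.

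**Figure D1:**
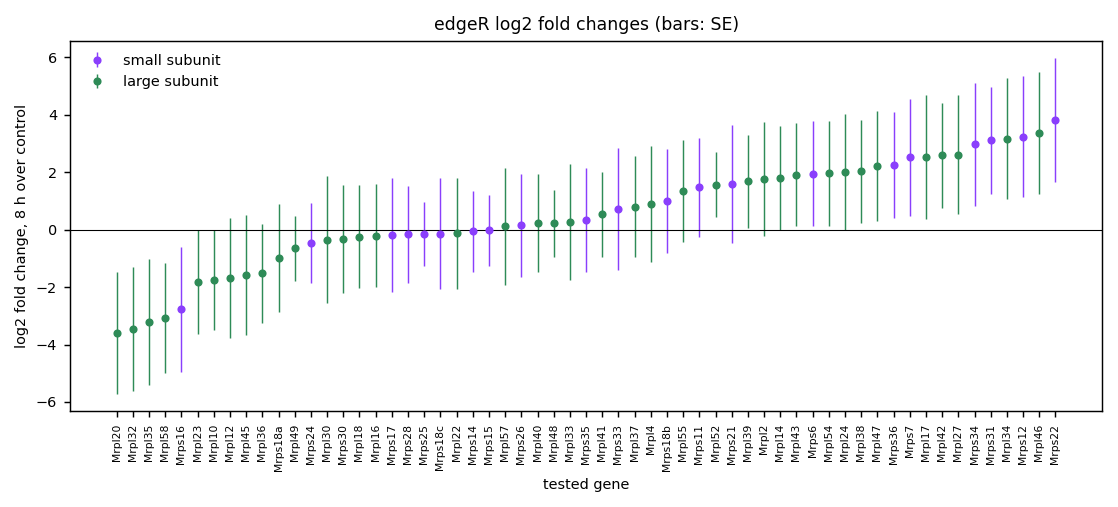
Log2 fold change (8 h over control, y axis) of each of the 59 tested genes (x axis), from edgeR, with bars of 1 SE on either side, small subunit in purple and large subunit in green. Values run from -3.60 for Mrpl20 to 3.83 for Mrps22, and the widest bars are 2.21 log2 units.

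The small subunit as a whole held more of the counts in all 8 h libraries than in any control, although its tested genes divided into 13 with higher and 8 with lower values. Its 25 rows, Mrps36 included, together held 0.450%, 0.412% and 0.450% of counts at 8 h, against 0.234%, 0.237% and 0.213% in controls 1 to 3. The means were 0.438 ± 0.0218% at 8 h and 0.228 ± 0.0136% in controls (SD, n = 3 each). The groups did not overlap, and the libraries of each group lay close together. This is a sum over a chosen list, noticed after the values were seen, and it carries no test. The large subunit, with 50 rows, held 0.401%, 0.626% and 1.17% at 8 h and 0.442%, 1.19% and 0.453% in controls, so its groups overlapped. The ratio of large to small subunit counts was 0.892, 1.52 and 2.61 at 8 h and 1.88, 4.996 and 2.13 in controls. All 75 rows held 1.17 ± 0.404% of counts at 8 h and 0.922 ± 0.435% in controls (SD, n = 3 each), with overlapping groups.

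A few genes made up much of the small subunit's share, and the leading ones differed between some libraries and recurred in others. Mrps12 and Mrps22 supplied 22.7% and 22.6% of it in 8 h replicate 1, Mrps34 and Mrps21 33.9% and 31.8% in 8 h replicate 2, and Mrps33 49.9% in 8 h replicate 3. Mrps16 and Mrps33 supplied 41.5% and 35.5% in control 1, Mrps33 and Mrps17 supplied 24.1% and 21.7% in control 2, and Mrps16 supplied 35.5% in control 3. Mrps33 thus led in 1 library of each group, and Mrps16 led in 2 of the 3 controls. With the largest row of each library left out, the share was 0.348%, 0.273% and 0.226% at 8 h, against 0.137%, 0.180% and 0.137% in controls, and the groups still did not overlap. With TMM-scaled libraries it was 0.451%, 0.425% and 0.408% at 8 h, against 0.271%, 0.216% and 0.239% in controls. Dap3, Chchd1, Ptcd3 and Aurkaip1 encode small-subunit proteins under other names. Adding them gave 0.593%, 0.535% and 0.514% at 8 h, against 0.460%, 0.295% and 0.293% in controls. Of the marker lists of other cell types, the summed levels of the 8 myeloid genes went the opposite way. They were 6.96 to 17.8 CPM at 8 h and 19.5 to 74.7 CPM in controls. A different gene led each control's sum: Adgre1 with 59.2 CPM in control 1, Cd14 with 37.6 CPM in control 2 and Lyz2 with 12.6 CPM in control 3. Itgam and S100a9 were highest in 8 h replicate 1, at 4.23 and 2.47 CPM. The groups overlapped for each of the 8 myeloid genes. All 8 had a row and 3 had enough counts for a test, and the defining marker Csf1r had 0 to 3 counts in every library. The summed levels of B cell, NK and CD8 T cell, erythroid and T cell markers overlapped between the groups. Their part in the result was not tested.

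**Figure D2:**
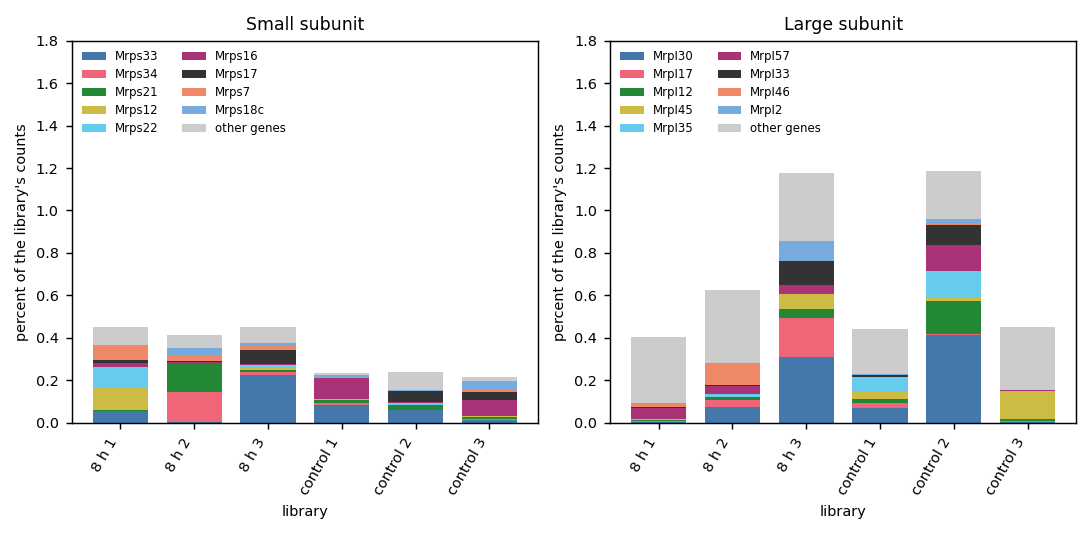
Percent of each library's counts (y axis) taken by small-subunit rows (left) and large-subunit rows (right) in the 3 libraries at 8 h and the 3 controls (x axis). The 9 genes with the highest share in any library are coloured and the rest are grey. Small-subunit bars stand at 0.412% to 0.450% at 8 h and 0.213% to 0.237% in controls, with Mrps33 the largest row in 8 h replicate 3 and control 2 and Mrps16 in controls 1 and 3, while large-subunit bars overlap between groups.

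Among small-subunit genes, Mrps22, which encodes a protein without a bacterial counterpart that is mutated in human mitochondrial disease, had the highest fold change. It stood at 1018, 4.74 and 153 CPM at 8 h, against 12.0, 66.4 and 4.29 CPM in controls. Its 8 h replicate 1 was far above the rest, whereas replicate 2 lay within the controls. The log2 fold change was 3.83 ± 2.16 (SE; edgeR adjusted p = 0.621) and was 1.53 without 8 h replicate 1. Mrps12 encodes a protein of the decoding site, where its bacterial counterpart is the target of streptomycin resistance mutations. It had 1024, 15.3 and 89.4 CPM at 8 h and 50.1, 7.36 and 62.3 CPM in controls. Its log2 fold change of 3.24 ± 2.10 (SE; edgeR adjusted p = 0.670) was 0.39 without 8 h replicate 1. Mrps31 (chromosome 8, 22410449 to 22429669), which also encodes a protein without a bacterial counterpart, had 80.3, 125 and 15.8 CPM at 8 h and 10.9, 3.38 and 11.1 CPM in controls. All of its 8 h values lay above all control values, with a log2 fold change of 3.12 ± 1.86 (SE; edgeR adjusted p = 0.643). Mrps7 (chromosome 11, 115604140 to 115608036), a protein of the head of the small subunit, also had groups that did not overlap. Its levels were 632, 287 and 162 CPM at 8 h and 46.3, 5.57 and 137 CPM in controls, with a log2 fold change of 2.52 ± 2.04 (SE; edgeR adjusted p = 0.745), or 3.81 without control 3. The Mrps7 span overlaps those of Gga3 and Mif4gd, so its counts are uncertain where counting could have split reads.

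Mrps16, whose protein is of bacterial descent and is mutated in human mitochondrial disease, went the other way in value. It had 165, 109 and 19.1 CPM at 8 h and 1123, 35.8 and 847 CPM in controls. Control 2 lay inside the range of the 8 h libraries, and the log2 fold change was -2.77 ± 2.17 (SE; edgeR adjusted p = 0.738). Mrps33, the small-subunit gene with the highest mean, had 557, 40.9 and 2035 CPM at 8 h and 960, 519 and 114 CPM in controls, with no order between the groups. The log2 fold change was 0.72 with all libraries and -0.81 without 8 h replicate 3. Separate genes encode forms of the bacterial protein S18. Mrps18c, the form that sits in the place of bacterial S18, had 54.5, 351 and 168 CPM at 8 h and 123, 48.3 and 457 CPM in controls. Mrps18b, a small-subunit form, had 193, 9.26 and 158 CPM at 8 h and 3.58, 155.5 and 20.9 CPM in controls. Mrps18a, whose protein is part of the large subunit in spite of its name, had 241, 22.9 and 5.65 CPM at 8 h and 162, 287 and 87.3 CPM in controls. Their log2 fold changes were -0.13 ± 1.92, 1.0003 ± 1.81 and -0.99 ± 1.87 (SE), and the groups overlapped for each of these genes. Leaving out 1 library moved Mrps18b to between 0.44 without control 1 and 3.25 without control 2, and Mrps18a to between -3.62 without 8 h replicate 1 and -0.42 without 8 h replicate 3.

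Over both subunits, the groups did not overlap for 8 of the 59 tested genes, 6 higher and 2 lower at 8 h, or 13.6%, where 10.8% of all tested genes did not overlap (5.72% higher and 5.08% lower). The share of these genes is thus near that of the whole table. Besides Mrps31 and Mrps7, the 4 higher genes were Mrpl34, Mrpl27, Mrpl47 and Mrpl52, and the 2 lower genes were Mrpl58 and Mrpl20. The untested Mrpl44 had 2, 5 and 3 counts at 8 h and 5, 5 and 6 counts in controls, which tie at 5, and its groups separated only as CPM, by 0.435 against 0.547 CPM at the nearest.

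**Figure D3:**
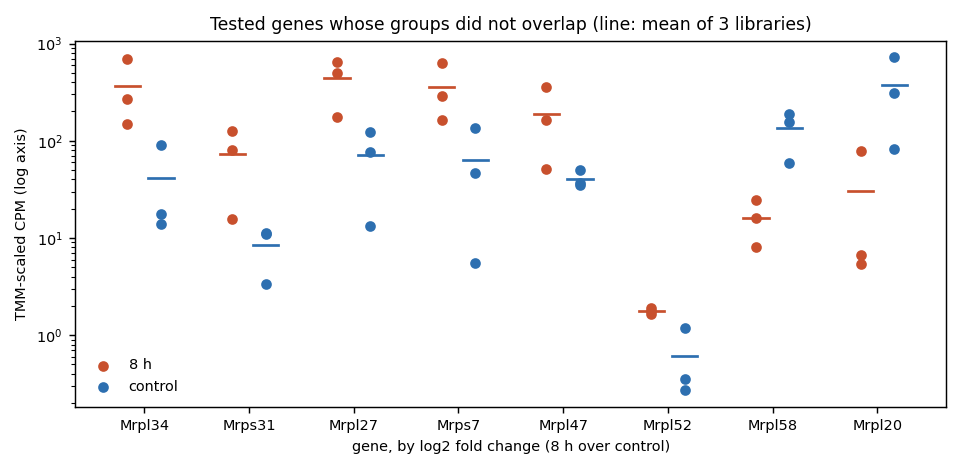
TMM-scaled CPM (log y axis) of the 8 tested genes whose groups did not overlap, ordered by log2 fold change on the x axis, with 8 h libraries in orange left of controls in blue and a line at the mean of 3. The gap is narrow for several genes, as for Mrpl20, whose highest 8 h value is 79.3 CPM and lowest control value 82.9 CPM.

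In the large subunit, Mrpl34 (chromosome 8, 71464926 to 71465753), which encodes a small protein of bacterial descent that binds ribosomal RNA, had 691, 149 and 269 CPM at 8 h and 91.3, 13.9 and 17.7 CPM in controls. The means were 370 ± 285 CPM at 8 h and 41.0 ± 43.7 CPM in controls (SD, n = 3 each), and the log2 fold change was 3.17 ± 2.10 (SE; edgeR adjusted p = 0.672). Leaving out any 1 library kept it between 2.37 and 4.52. Mrpl27 (chromosome 11, 94653770 to 94661932), whose bacterial counterpart reaches the peptidyl transferase centre, had 175, 496 and 648 CPM at 8 h and 13.2, 77.3 and 124 CPM in controls. The fitted log2 fold change was 2.62 ± 2.09 (SE; edgeR adjusted p = 0.744). The gene has an annotated pseudogene copy and overlaps Eme1, so its counts are uncertain. Mrpl47 (chromosome 3, 32727497 to 32736755), which encodes a protein beside the exit of the peptide tunnel, had 356, 51.2 and 165 CPM at 8 h and 36.5, 50.3 and 34.8 CPM in controls. The lowest 8 h library and the highest control differed by less than 1 CPM, and the log2 fold change was 2.23 ± 1.91 (SE; edgeR adjusted p = 0.763), or 1.42 without 8 h replicate 1. Mrpl52, whose protein lacks a bacterial counterpart, was scarce, with 15, 22 and 13 counts at 8 h and 2, 6 and 3 counts in controls. The log2 fold change was 1.56 ± 1.13 (SE; edgeR adjusted p = 0.704), or 2.45 without control 2.

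Mrpl58 and Mrpl20 had the lower values at 8 h. Mrpl58 (chromosome 11, 115403724 to 115412674) encodes a peptidyl-tRNA hydrolase that is both a part of the large subunit and a rescue factor for stalled ribosomes. It had 16.0, 8.13 and 24.3 CPM at 8 h and 188, 157 and 58.8 CPM in controls. The means were 16.1 ± 8.11 CPM at 8 h and 135 ± 67.5 CPM in controls (SD, n = 3 each), and the log2 fold change was -3.06 ± 1.92 (SE; edgeR adjusted p = 0.653). Leaving out any 1 library kept it between -3.45 and -2.73. DESeq2 gave an adjusted p of 0.0720, the lowest of the 52 genes to which that tool gave one. Mrpl20 (chromosome 4, 155802878 to 155808831), whose bacterial counterpart binds ribosomal RNA early in assembly, had 6.69, 79.3 and 5.36 CPM at 8 h and 309, 82.9 and 720 CPM in controls. Its log2 fold change of -3.60 ± 2.13 (SE; edgeR adjusted p = 0.639) was -5.96 without 8 h replicate 2 and -2.65 without control 3. Mrpl32, a zinc-binding protein that is matured by the m-AAA protease, had 32.3, 81.3 and 16.4 CPM at 8 h and 418, 15.9 and 1002 CPM in controls, and Mrpl35 had 56.5, 144 and 6.67 CPM at 8 h and 759, 1128 and 46.7 CPM in controls. Both had overlapping groups, with log2 fold changes of -3.46 ± 2.17 and -3.22 ± 2.20 (SE). That of Mrpl32 was -2.30 without control 3.

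The stalk of the large subunit, which recruits translation factors, is built from the proteins of Mrpl10, Mrpl11 and Mrpl12. Mrpl12, whose human protein also binds the mitochondrial RNA polymerase, had 18.9, 118 and 408 CPM at 8 h and 192, 1425 and 128 CPM in controls. Its fitted change, -1.68 ± 2.08 (SE) on the log2 scale, was 0.19 without control 2 and -3.02 without 8 h replicate 3. Mrpl10 had 18.1, 4.07 and 7.68 CPM at 8 h and 5.18, 55.1 and 39.7 CPM in controls, with a log2 fold change of -1.74 ± 1.74 (SE). Mrpl11 had 4, 6 and 3 counts at 8 h and 3, 1 and 3 counts in controls and was not tested, so neighbouring proteins of 1 structure differed in counts by orders of magnitude. Mrpl3, which reaches the peptidyl transferase centre, had 1, 3 and 1 counts at 8 h and 0, 0 and 2 counts in controls. Mrpl46, a protein of the central protuberance, had 139, 976 and 9.42 CPM at 8 h and 3.04, 84.3 and 22.1 CPM in controls. Its log2 fold change of 3.36 ± 2.11 (SE; edgeR adjusted p = 0.653) was 1.04 without 8 h replicate 2.

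The genes with the highest mean CPM over the 6 libraries were Mrpl30, Mrps33, Mrpl45, Mrpl57, Mrpl17, Mrps16, Mrpl12 and Mrpl35. Mrpl30 had 22.1, 776 and 2816 CPM at 8 h and 805, 3754 and 31.9 CPM in controls, so the lowest and the highest library of each group differed over 100-fold. Mrpl45, whose protein anchors the ribosome to the inner membrane, had 10.2, 39.0 and 615 CPM at 8 h and 415, 146 and 1430 CPM in controls, with a log2 fold change of -1.58 that was -4.73 without 8 h replicate 3 and -0.33 without control 3. Mrpl57 was the one of these 8 with like values at 8 h, 512, 348 and 391 CPM, beside 6.44, 1128 and 19.9 CPM in controls. Its fitted change was 0.12 log2 units with all libraries and 4.96 without control 2. Mrpl17 had 68.1, 331 and 1641 CPM at 8 h and 287, 17.3 and 49.3 CPM in controls, and its log2 fold change of 2.53 was 0.81 without 8 h replicate 3 and 4.33 without control 1. Per length of the matched transcript, Mrpl30 and Mrps33 had the highest mean levels, at 1411 and 1408 CPM per kb, followed by Mrps21 at 803 and Mrpl33 at 735 CPM per kb. Mrpl15 had the lowest, at 0.0113 CPM per kb. For Mrpl30 and Mrps33, the differences between libraries exceeded the difference between the means of these genes. The rest of the order was not compared in this way.

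**Figure D4:**
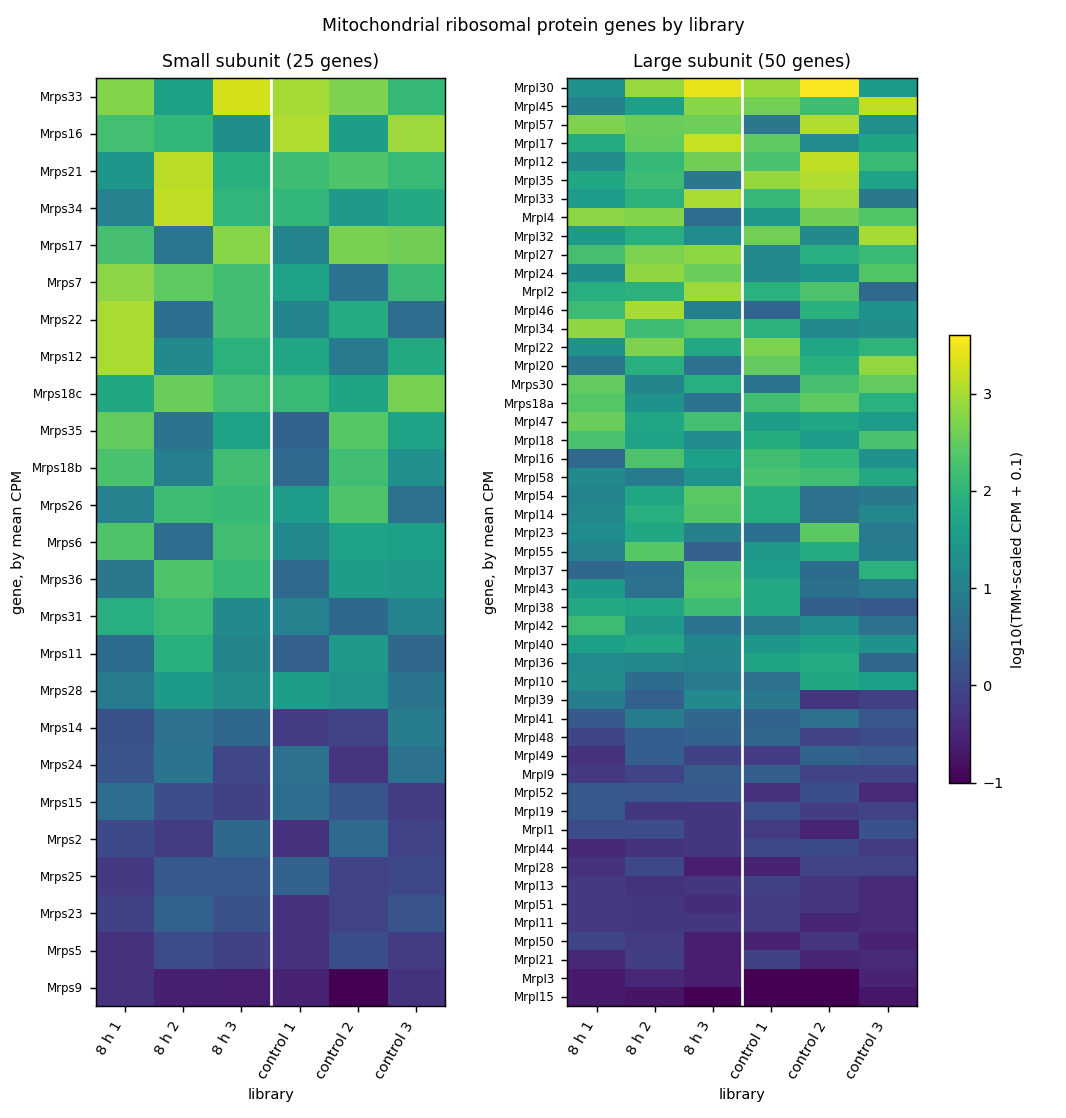
Level of each of the 75 genes (rows, ordered by mean CPM within the 25 small-subunit and 50 large-subunit genes) in the 3 libraries at 8 h and the 3 controls (columns), coloured as log10 of TMM-scaled CPM plus 0.1. The upper rows vary between neighbouring columns of 1 group, and the lowest rows are low in all 6 columns.

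The genes divided into a large set that varied from library to library and a smaller set that was low everywhere. With limits chosen after the values were seen, 50 genes had a mean of at least 100 counts, 21 never exceeded 40 counts in any library, and 4 lay between. A mean of 100 counts was reached by 66.7% of these genes, against 34.2% of all rows. No library exceeded 40 counts for 28.0% of these genes, against 29.0% of all rows. Among the 50, the highest library of a group exceeded the lowest by a median of 22.0-fold at 8 h and 12.2-fold in controls. Over all rows at that level the medians were 15.5-fold and 14.4-fold. The spread was over 10-fold in both groups for 21 of the 50 genes, and for 1480 of the 4503 rows of the table at that level. The 21 low genes included 15 of the 50 large-subunit and 6 of the 25 small-subunit genes. By the hand-made sorting on descent, they were 13 of the 43 genes placed as having a bacterial counterpart and 8 of the 30 placed as lacking one. Among the 13 were Mrpl1, Mrpl3, Mrpl9, Mrpl11, Mrpl13, Mrpl15, Mrps2, Mrps5 and Mrps9. Matched transcripts were longer among the low genes, with a median of 1764 bases, than among the 50, with 1106.5 bases. The same order held over all rows, with medians of 2959 and 2291 bases. These lengths are described across genes, which are not independent replicates.

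The sequence of miR-155 bears on which transcripts it could pair with. The natural strands stand in here for the sequence of the synthetic oligonucleotide. The mature mouse miR-155 strands from RefSeq (GRCm38.p6, chromosome 16, plus strand) are printed with the seed, bases 2 to 8, in capitals, since the seed sets target choice.
mmu-miR-155-5p: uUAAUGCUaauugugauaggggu
mmu-miR-155-3p: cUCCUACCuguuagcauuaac
Matches to the 5p seed, AGCATTA or GCATTAA, were searched for in the longest 3' UTR annotated by GENCODE M21. A match was present in 6 of the 59 tested genes, or 10.2%, against 10.9% of 7941 tested genes with an annotated 3' UTR. The median 3' UTR length was 320 bases for the tested mitochondrial ribosomal protein genes and 861 bases for all. The matches of the 5 such genes with the highest mean counts are printed 5′ to 3′ on the transcript's strand (GRCm38), with the match in capitals and up to 10 bases on either side. The second match of Mrps26 is left out.
Mrpl17, chr7:105803235-105803262, minus strand: atgagaacccAGCATTAAaggaatttta
Mrps26, chr2:130565242-130565269, plus strand: aactcagggcAGCATTAAactctgggaa
Mrpl32, chr13:14609635-14609661, minus strand: ctcatcatgtGCATTAAcagttcatag
Mrpl35, chr6:71815955-71815981, minus strand: ccaccattgtGCATTAAacattcccag
Mrpl18, chr17:12911590-12911616, minus strand: gaaagcatctGCATTAAaaggaagaaa
Mrpl17 and Mrps26 hold the longest form, the 8mer, and the others a 7mer. The sites of Mrpl17 and Mrpl32 lie outside the gene's span in RefSeq, so whether the counted transcripts hold them is uncertain. Log2 fold changes of the 5 genes were 2.53 for Mrpl17, 0.16 for Mrps26, -3.46 for Mrpl32, -3.22 for Mrpl35 and -0.24 for Mrpl18, so they had no common direction. Mrps25, with 2 matches, had a log2 fold change of -0.14, and Mrpl3 was not tested. A match is a description of letters, and whether the transcripts were bound was not measured.

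Promoters of many nuclear genes for mitochondrial proteins are known to bind the factors NRF1, GABP (of the ETS family) and YY1. RefSeq windows from 250 bases before to 50 after the start were found for 66 of the 75 genes and searched on both strands. An NRF1 form, GCGCA and GCGC with any base between them, was in 13 of the 66, or 19.7%, against 9.24% of the 10176 genes of the table with a window. CCGGAAG, an ETS form, was in 24, or 36.4%, against 16.3%. AANATGGCG, a YY1 form, was in 10, or 15.2%, against 4.74%. At least 1 of these was in 40, or 60.6%, against 26.5%. Whether the direction differed with a motif was not tested. Among the 20 tested genes with the ETS form 14 were higher in value at 8 h and 6 lower, and among the 33 without it 16 were higher and 17 lower. Their median log2 fold changes were 0.49 and -0.03. With the NRF1 form 6 of 10 tested genes were higher and 4 lower, against 24 and 19 without it, with medians of 0.14 and 0.26. With the YY1 form 4 of 10 were higher and 6 lower, against 26 and 17 without it, with medians of -0.39 and 0.26. Windows of 3 genes are printed 5′ to 3′ on the gene's strand (GRCm38.p6), with motif letters in capitals. Mrpl27 and Mrpl58 carry the ETS and YY1 forms and lay on opposite sides of the comparison, and Mrpl32, also lower in value, carries the NRF1 form.
Mrpl27, chr11:94653541-94653840, plus strand: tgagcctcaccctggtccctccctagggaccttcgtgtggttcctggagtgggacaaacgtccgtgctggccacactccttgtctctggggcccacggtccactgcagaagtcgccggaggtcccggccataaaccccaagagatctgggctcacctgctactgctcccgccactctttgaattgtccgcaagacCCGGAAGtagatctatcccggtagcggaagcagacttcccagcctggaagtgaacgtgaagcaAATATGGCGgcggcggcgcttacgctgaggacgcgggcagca
Mrpl58, chr11:115403502-115403801, plus strand: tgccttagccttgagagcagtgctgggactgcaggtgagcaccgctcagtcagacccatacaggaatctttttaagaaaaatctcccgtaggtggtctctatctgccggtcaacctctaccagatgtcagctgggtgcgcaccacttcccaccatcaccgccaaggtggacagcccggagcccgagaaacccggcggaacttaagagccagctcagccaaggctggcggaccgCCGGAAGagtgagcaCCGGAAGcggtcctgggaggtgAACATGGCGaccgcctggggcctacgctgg
Mrpl32, chr13:14612988-14613287, minus strand: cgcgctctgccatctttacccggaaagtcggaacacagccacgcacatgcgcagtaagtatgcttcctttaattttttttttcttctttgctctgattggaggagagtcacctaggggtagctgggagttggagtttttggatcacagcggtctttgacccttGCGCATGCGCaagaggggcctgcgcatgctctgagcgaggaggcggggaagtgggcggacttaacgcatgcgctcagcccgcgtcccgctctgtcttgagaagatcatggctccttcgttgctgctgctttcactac
A letter match shows neither binding nor a cause.

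Genes that work with the mitochondrial ribosome were read from the same fit in 5 lists. Of their 43 tested genes edgeR called 0, with 1 at an unadjusted p under 0.05, against 8.53% of all genes tested. The gene with that p was Tufm, the mitochondrial elongation factor that delivers aminoacyl-tRNA. It had 44, 41 and 40 counts at 8 h, against 985, 974 and 503 counts in controls, or 5.17, 3.09 and 5.80 CPM against 176, 194 and 45.9 CPM. The groups did not overlap, and the log2 fold change was -4.88 ± 2.08 (SE; edgeR unadjusted p = 0.0189, adjusted p = 0.511). DESeq2 called it, with an adjusted p of 0.00158. Of the other tested genes in the lists it called only Slirp, where it called 4.8% of all 8308. Groups also did not overlap for the tested genes Slirp, Mterf4, Trmt10c and Hsd17b10, higher at 8 h, and Gatc, lower. Together with Tufm these genes stand among the 43 tested, and over all tested genes 10.8% did not overlap. The other translation factors had higher values at 8 h in 5 of 5 tested cases, where 51.3% of all tested genes were higher. Gfm1, the translocase, was among the 5. It had 410, 54.5 and 8.84 CPM at 8 h and 76.0, 32.0 and 95.6 CPM in controls, with overlapping groups.

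Slirp, which with Lrpprc stabilises mitochondrial messenger RNA, had 131, 200.3 and 1132 CPM at 8 h and 17.5, 47.7 and 5.47 CPM in controls. All 8 h values lay above all control values, with a log2 fold change of 4.37 ± 2.26 (SE; edgeR adjusted p = 0.595), and DESeq2 called it with an adjusted p of 0.0292. In its list of mitochondrial DNA transcription and RNA processing, 8 of 11 tested genes had higher values and 3 lower. Their median log2 fold change was 1.04. Over all tested genes 51.3% were higher, with a median of 0.06. The lists are short and were not tested as sets. Tfam, which packages and transcribes mitochondrial DNA, had 4.34, 241 and 84.9 CPM at 8 h and 17.0, 242 and 3.37 CPM in controls. Pnpt1, a mitochondrial exoribonuclease, had a log2 fold change of 0.05. Among ribosome assembly genes 5 of 12 tested were higher in value and 7 lower, with a median of -0.54. Mterf4, which guides an rRNA methyltransferase, had 91.9, 131 and 48.7 CPM at 8 h and 2.503, 2.78 and 19.6 CPM in controls, with groups that did not overlap and a log2 fold change of 3.44 ± 1.90 (SE; edgeR adjusted p = 0.621). Clpx, the unfoldase of a matrix protease, and Rpusd4, an RNA pseudouridine synthase, had log2 fold changes of 1.15 and 0.66. The list for charging mitochondrial tRNAs holds synthetases and subunits of the glutamyl-tRNA amidotransferase, and 6 of its 9 tested genes had higher values, with a median of 0.91. The amidotransferase genes among the 9 were Gatb and Gatc, with log2 fold changes of 0.91 and -3.07. Kars and Gars, which serve the cytosol as well, had log2 fold changes of 1.89 and -0.47, and Rars2 had one of 1.74. Of the ribosomal proteins named otherwise, 3 of 5 had higher values. Dap3, a GTP-binding small-subunit protein, had 266, 889 and 503 CPM at 8 h and 2341, 345 and 13.2 CPM in controls. Chchd1 and Aurkaip1 had log2 fold changes of 2.44 and -1.07.

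**Figure D5:**
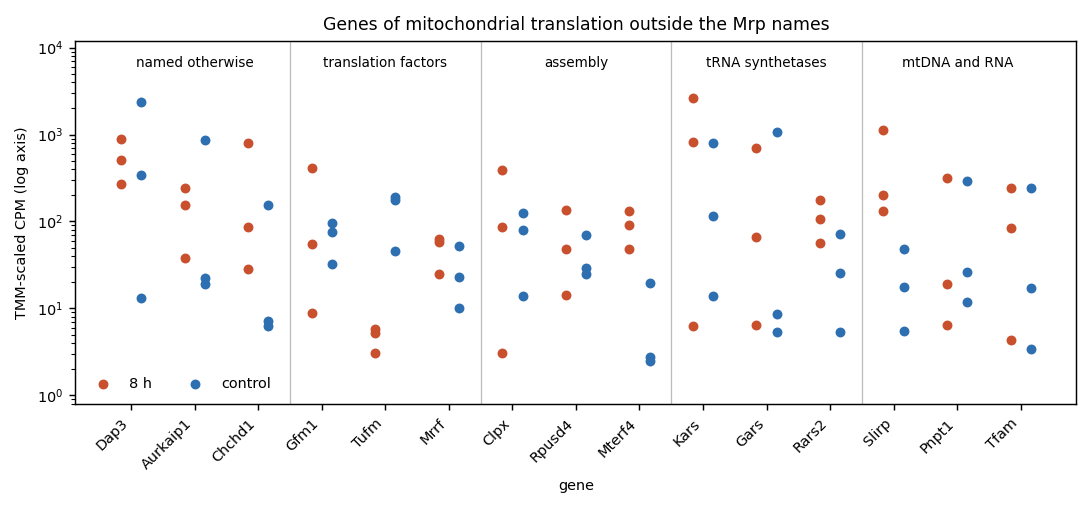
TMM-scaled CPM (log y axis) in each library of the 3 genes with the highest mean in each of 5 lists (x axis, lists parted by grey lines), 8 h libraries in orange left of controls in blue. Tufm lies lower and Slirp and Mterf4 higher in all 8 h libraries, and the other 12 genes plotted overlap between groups.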

How the data were processed

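The authors deposited raw counts in 1 table, 1 row per RefSeq transcript and 1 column per library. It has 0 columns from outside the series. RNA was sequenced as single reads of 50 bases, per the series' design text. The submitters' processing notes name Bowtie, R 3.4.2 and GRCm38, with no role. How reads were counted, on which strand and with what rule for reads matching several places was not given in the sources used here, so counts of overlapping genes (23 of the 75 genes described) or of genes with pseudogene copies (4) are uncertain.

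Symbols and coordinates came from RefSeq GRCm38.p6 (12827 rows) or GENCODE M21 (47 rows), and 303 rows stayed unnamed. Transcript lengths and 3' UTRs came from GENCODE M21. The comparison was fitted in edgeR 4.0.16 (R 4.3.3) with TMM scaling, filterByExpr (8308 rows kept) and the group as the only term. Its robust quasi-likelihood F test was two-sided, with Benjamini-Hochberg adjustment over those rows at 0.05. The SE was obtained by dividing the size of the log2 fold change by the root of F. Tried as alternatives were DESeq2 1.42.0, voom of limma 3.58.1, a replicate block, upper-quartile or RLE scaling, testing all rows, testing rows with a mean of 5 CPM or more, and leaving out each library. The script was tested on simulated counts.

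Members and lists were chosen with earlier results of these data known. Named genes were those called, the 8 with the highest mean CPM, the 5 largest log2 fold changes each way, those whose groups did not overlap, up to 5 with seed matches, 11 chosen for their role and 3 per companion list by mean CPM. Other names were chosen after their values were seen.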

Additional observations from a re-analysis of the deposited data

How the results depend on the processing

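No mitochondrial ribosomal protein gene was called under any of the 13 alternatives. Over all genes, edgeR called 0 under each of its alternatives, limma-voom called 0, and DESeq2 called 399. The median log2 fold change of the tested genes, 0.34, ran from 0.20 to 1.31 when 1 library was left out, the highest without control 2, was 0.21 with the replicate block and was 0.74 when rows with a mean of at least 5 CPM were tested. The deviations of libraries sharing a number correlated at -0.0107, 0.0151 and -0.0039, so the numbers were not taken to pair samples. The difference in the small subunit's share, 8 h minus control, was 0.209 percentage points. It was 0.186 with TMM-scaled CPM, 0.348 without the 100 most abundant rows of the table and 0.131 without the largest row of each library, alternatives chosen after seeing the data. Groups did not overlap in any of these. The difference of all 75 rows, 0.250 points, was 0.0230 without 8 h replicate 3 and 0.501 without control 2.

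The log2 fold change had the same sign in 319 of 337 alternative values of the 26 named tested genes. It had the other sign in 18 values of 7 genes, and the cause was not tested. Many of the 26 were named for large fold changes or for groups that did not overlap in these same libraries. Their sign was thus likely to hold, so the count is not a measure of stability. The 7 genes were named for level, seed matches or role. For Mrps33 the log2 fold change was -0.45 with the replicate block and -0.064 with limma-voom, and for Mrps18c 0.13 with limma-voom. Leaving out 1 library, it ran from -0.81 to 1.47 for Mrps33, -0.93 to 1.18 for Mrps18c, -1.86 to 1.55 for Mrpl30, -0.45 to 4.96 for Mrpl57, -3.02 to 0.19 for Mrpl12, -1.66 to 0.69 for Mrpl18 and -0.36 to 2.33 for Mrps26. The 16 untested genes had at most 35 counts in any library, so no difference could be read for them, and the cause of their low counts was not tested.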

Other observations

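Mrpl46 and Mrps11, which encode a large-subunit and a small-subunit protein, have spans 41 bases apart on chromosome 7, the only pair of these genes within 1000 bases. Mrps11 had 4.11, 83.7 and 12.5 CPM at 8 h and 2.503, 30.4 and 3.19 CPM in controls. Like Mrpl46, with 139, 976 and 9.42 CPM at 8 h and 3.04, 84.3 and 22.1 CPM in controls, it was highest in replicate 2 of each group. Replicate numbers were not taken to pair samples, and how often other genes had this pattern was not counted.

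Mrpl14 and Mrpl17, on chromosomes 17 and 7, ranked the 6 libraries in the same order. Mrpl14 had 13.4, 75.3 and 232 CPM at 8 h and 74.4, 5.37 and 13.2 CPM in controls. They were the only pair to do so among 1711 pairs of tested genes, a share of 0.0584%, against 0.142% of pairs over all tested genes.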
